A study of Homo sapiens with 8 samples.

Results

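Megakaryocytes and the platelets they shed are recognised by a small set of surface receptors and granule proteins, and 9 of their genes are described here: ITGA2B, ITGB3, GP1BA, GP9, GP6, PF4, PPBP, VWF and SELP. They were picked by name as defining genes of that lineage, out of 20163 protein-coding genes in the annotation. All ChIP-seq peaks with a summit inside one of these genes, or at most 20 kb from it, were counted as its peaks. The question was where ETO2-GLIS2, the fusion protein of a megakaryoblastic leukaemia, and AML1-ETO, the fusion protein of t(8;21) leukaemia, bind around them in a cell that is not a megakaryocyte.

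AML1-ETO joins the DNA-binding Runt domain of RUNX1 to the corepressor ETO (RUNX1T1). ETO2-GLIS2 joins most of the corepressor ETO2 (CBFA2T3) to the zinc fingers of GLIS2. Each was expressed with an HA tag from a doxycycline-inducible vector in U937, a monocytic cell line, in 1 clone per protein, with 5 µg/ml doxycycline for 12 h or 48 h. All groups, inputs included, were therefore doxycycline-treated U937 clones that carried one of the transgenes beside the cell's own RUNX1, ETO2 and GLIS2 genes, and anti-HA beads precipitated the tagged protein. The 8 libraries were 1 ChIP and 1 input per protein and time, so no condition has a replicate, no condition was tested against another, and every difference below is a difference between 2 lists. The lists hold no expression values, so whether these U937 clones transcribe any of the 9 genes was not analysed here.

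In a vessel wound, platelets are caught by von Willebrand factor (VWF), which the GPIb-IX complex (GP1BA and GP9 encode subunits of it) holds on to under flow, and by collagen, which GP6 senses. Signals from these receptors switch on the fibrinogen receptor, the integrin αIIbβ3 made of ITGA2B and ITGB3, and empty the alpha granules, which release the chemokines PF4 and PPBP, more VWF, and P-selectin (SELP) to the surface. In megakaryocytes these genes are driven by RUNX1, GATA1, FLI1 and their partners.

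The deposited lists held 70833 peaks for AML1-ETO at 12 h, 105769 for AML1-ETO at 48 h, 28325 for ETO2-GLIS2 at 12 h and 30096 for ETO2-GLIS2 at 48 h. Of these, 16, 36, 15 and 15 peaks lay at the 9 genes, 82 in all. At least 1 peak was found for 6 of the 9 genes in the AML1-ETO list at 12 h, against 77.6% of all protein-coding genes, and for 6 at 48 h, against 80.3%. For ETO2-GLIS2 it was 5 of 9 at 12 h, against 66.4% of all protein-coding genes, and 5 of 9 at 48 h, against 66.0%. A smaller share of the members than of all genes had a peak at the start. A summit within 1 kb of the gene start was found for 1 member with AML1-ETO at 12 h (45.1% of all genes) and for 2 at 48 h (49.9%). ETO2-GLIS2 had such a summit at 0 of the 9 starts at 12 h (35.3% of all genes) and at 0 at 48 h (38.2%). Within 20 kb of the start, whatever the gene length, AML1-ETO had a peak at 5 members at 12 h (69.4% of all genes) and 6 at 48 h (73.5%), and ETO2-GLIS2 at 3 members at 12 h (57.0%) and 3 at 48 h (57.8%).

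For most of the 82 peaks the nearest start site of any annotated transcript was that of another gene. It was that of the member gene for 22 of them, or for 32 when only starts of protein-coding genes were considered, while 46 lay within 1 kb of a start site of some gene. When each gene was given only the start of its canonical transcript, a setting chosen after seeing the data, the nearest start was the member's for 31 of the 82, and 28 lay within 1 kb of a start. Chromosome 17, which carries ITGA2B, ITGB3 and GP1BA, held 60 of the 82, and GP1BA alone 37. Overlapping peaks of the 4 lists were joined into 42 regions. Of these, 40 held an AML1-ETO peak, 11 an ETO2-GLIS2 peak and 9 a peak of both proteins, and 26 were seen only in the long AML1-ETO list at 48 h. In all 4 lists there were 5 regions, each nearest to transcript starts of other genes: FAM171A2, EFCAB13, CHRNE, SLC25A11, and RNF167 to ENO3. With canonical starts the CHRNE region was nearest to GP1BA, and the others stayed with neighbours. When each list was cut to its 28325 strongest peaks, the members held 10, 9, 15 and 14 peaks in the same order of lists and AML1-ETO no longer had the larger number. Sequencing depth was not used here, and its part in the lengths of the lists was not tested.

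**Figure D1:**
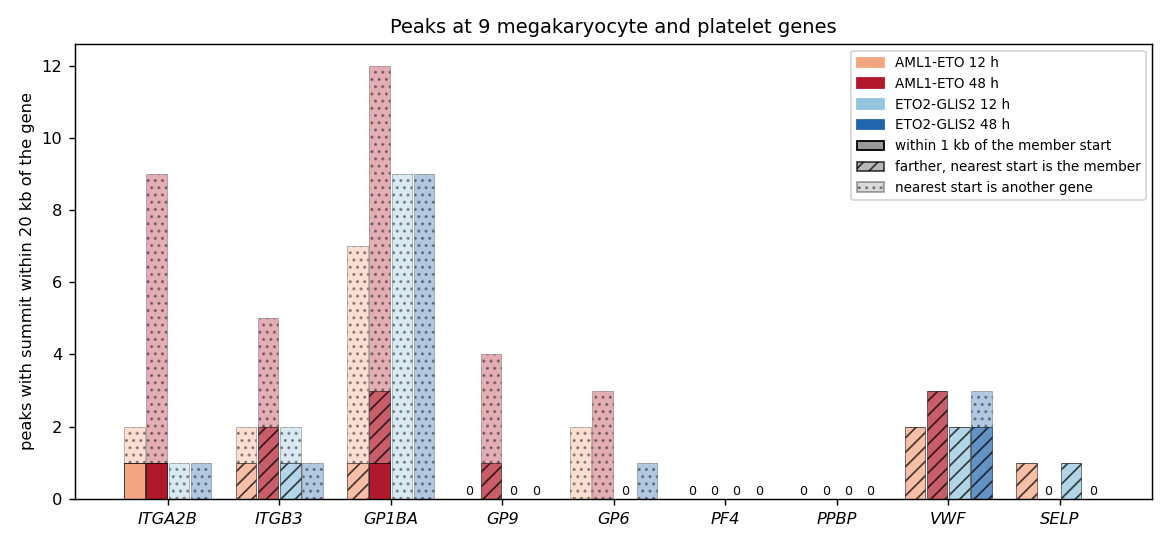
Number of peaks (vertical axis) with a summit inside or within 20 kb of each of the 9 genes (horizontal axis), 1 bar per peak list, filled plainly for summits within 1 kb of the gene's own start, hatched for summits farther off whose nearest start is still the gene's own, and dotted and paler for summits nearest to another gene, by the starts of all annotated transcripts. GP1BA carries 7, 12, 9 and 9 peaks, nearly all dotted, PF4 and PPBP carry 0 in every list, and the peaks of VWF and SELP are the ones that are mostly hatched.

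ITGA2B encodes the αIIb chain of the fibrinogen receptor and is the classical marker of the lineage (chr17:42449548-42467017, minus strand; all coordinates are hg19). It was the only member with an AML1-ETO peak at its own start at both times. At 12 h the peak was 511 bp wide with its summit 190 bp upstream of the start, a fold enrichment of 5.77 and rank 20803 in its list by −log10 q (29.4% of the list, where a low percentage is a strong peak). At 48 h it was 789 bp wide with its summit 164 bp inside exon 1, a fold of 4.01 and rank 44473 (42.0%). Both were thus middling peaks, and neither ETO2-GLIS2 list had a peak there. The 200 bases around the summit at 12 h (chr17:42467107-42467306, plus strand) are shown because this is the only member start that AML1-ETO marked at both times, with a Runt match and an E-box match that overlap in capitals.

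ITGA2B upstream window: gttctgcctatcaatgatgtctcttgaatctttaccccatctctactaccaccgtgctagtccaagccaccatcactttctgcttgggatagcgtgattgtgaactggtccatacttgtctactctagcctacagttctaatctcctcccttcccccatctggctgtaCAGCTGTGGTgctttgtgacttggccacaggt

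Runt matches are TGTGGT or TGCGGT and E-box matches CAGCTG, searched on both strands as all patterns below. The window at 48 h, centred 354 bp away in exon 1, held no Runt match, 1 GATA match (AGATAA or TGATAA) and 7 GGAA, the core of ETS sites.

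The other peaks counted for ITGA2B lay beyond its 3′ end. A region over the start of FAM171A2, about 26 kb downstream of the ITGA2B start, was in all 4 lists, with rank 15533 (21.9%) for AML1-ETO at 12 h and 15140 (14.3%) at 48 h. ETO2-GLIS2 ranked 18171 (64.2%) at 12 h and 16294 (54.1%) at 48 h there, and its peaks at these times did not overlap each other. No pattern searched for was found in any of the 4 summit windows of this region. The remaining 7 peaks were those of AML1-ETO at 48 h alone, between 23.7 and 37.2 kb downstream of the start, towards FAM171A2 and GRN, the gene of progranulin, and 5 of the 7 belonged to the weaker 50% of the list. The peaks just beyond the limit of 20 kb were nearest to the start of GRN as well, at 23.5 kb from ITGA2B for AML1-ETO at 12 h (rank 2724) and 23.6 kb for ETO2-GLIS2 at 12 h (rank 4402).

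ITGB3 encodes the β3 chain that pairs with αIIb (chr17:45331193-45391109, plus strand). No list had a peak within 1 kb of its start. The nearest region that more than 1 list shared lay 13.5 kb upstream, in intergenic sequence with ITGB3 as the nearest start. It ranked 22379 (31.6%) for AML1-ETO at 12 h, 17001 (16.1%) for AML1-ETO at 48 h and 16133 (57.0%) for ETO2-GLIS2 at 12 h. In the ETO2-GLIS2 list at 48 h it was missing. The AML1-ETO summits at 12 h and 48 h were 35 bp apart, and the summits of the different proteins at 12 h were 49 bp apart. The window around the AML1-ETO summit at 48 h is chr17:45317575-45317774 (plus strand). It is shown because ITGB3 and VWF are the only members with an upstream region of both proteins. This window held no Runt match, 3 GGAA and 1 GATA match, in capitals, 89 bp from the summit. The AML1-ETO window at 12 h held no GATA match, and that of ETO2-GLIS2 at 12 h held 1.

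ITGB3 upstream window: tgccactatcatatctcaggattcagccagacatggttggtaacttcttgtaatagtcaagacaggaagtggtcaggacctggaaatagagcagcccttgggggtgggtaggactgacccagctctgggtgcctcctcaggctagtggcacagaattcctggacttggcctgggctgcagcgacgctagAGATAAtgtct

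A weaker AML1-ETO peak at 48 h lay 11.9 kb upstream (rank 51680) and another in intron 2 (rank 71712), nearest to the start of a long non-coding RNA gene. The strongest peaks counted for ITGB3 lay about 70 kb from its start, beyond its 3′ end and over the start of EFCAB13. All 4 lists had them, with rank 3202 (4.52%) for AML1-ETO at 12 h, 2163 (2.05%) at 48 h, 1888 (6.67%) for ETO2-GLIS2 at 12 h and 1350 (4.49%) at 48 h. The fold enrichments were 22.2, 35.6, 27.8 and 34.8 in that order. Both ETO2-GLIS2 summits fell on the same base, and the AML1-ETO summit at 12 h lay 7 bp from it. This was the best ETO2-GLIS2 rank at any member at either time, and it sat 24 bp from the start of another gene. Most of that summit window is annotated as untranslated sequence and is not printed.

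**Figure D2:**
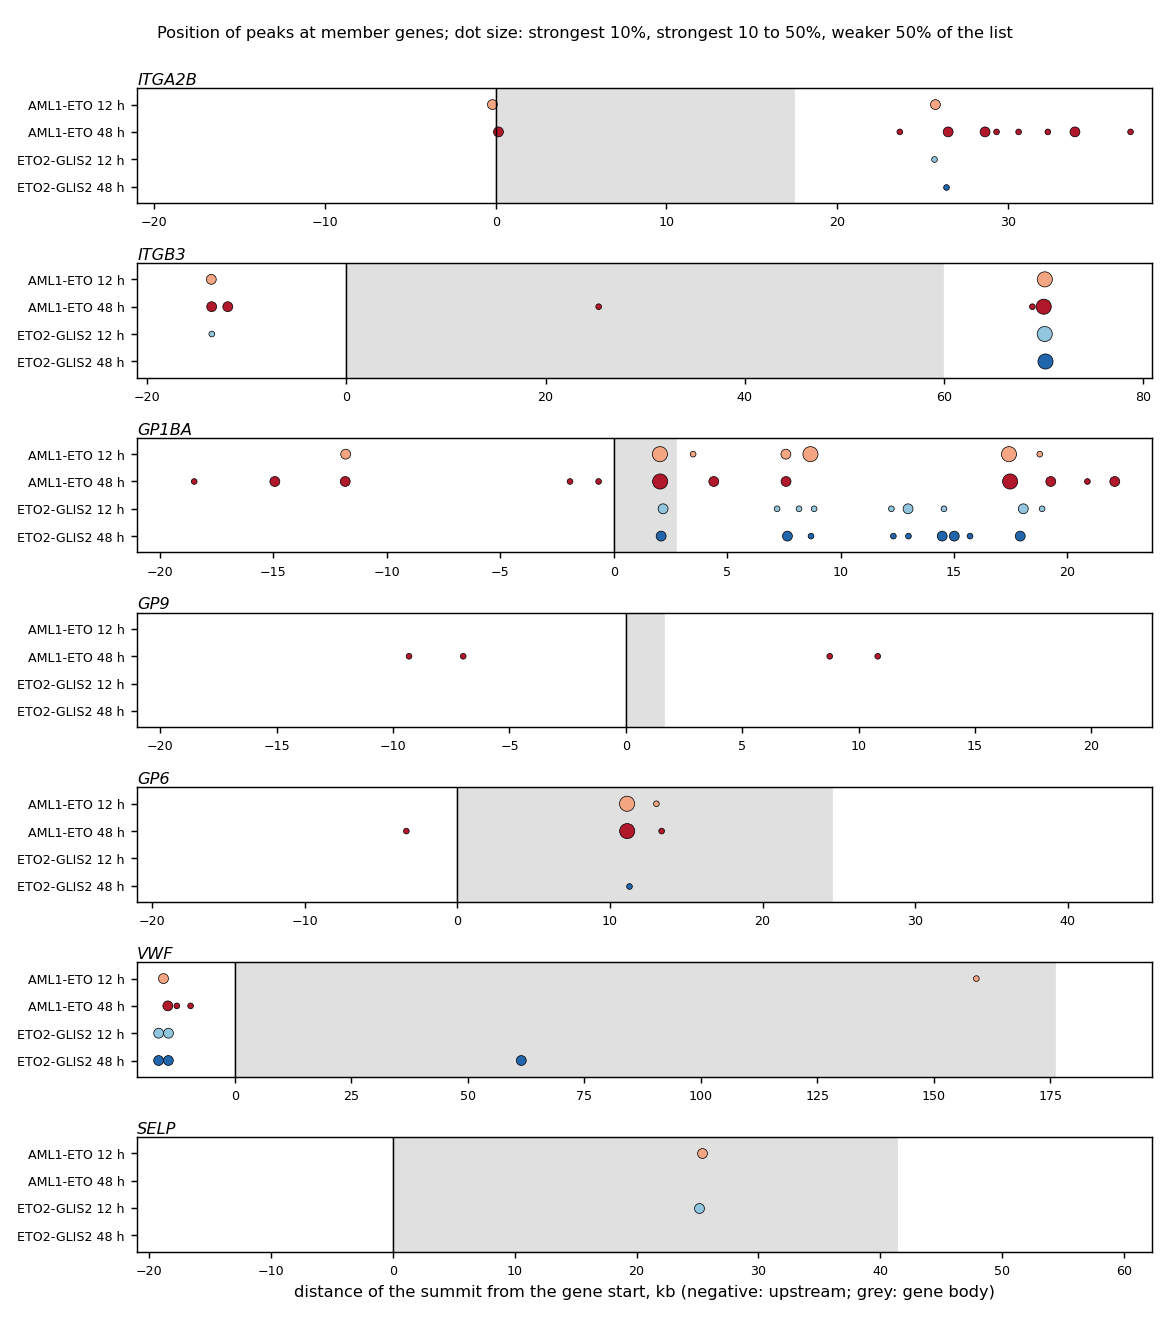
Distance of each summit from the start of its member gene in kb (horizontal axis, negative upstream, grey for the gene body) in the 4 lists (rows), with 1 panel for each of the 7 genes that have a peak and a larger dot for a stronger rank. The vertical line at 0 carries ITGA2B dots of AML1-ETO only, and the ETO2-GLIS2 dots of VWF stand in a pair 14.3 and 16.4 kb upstream at both times.

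GP1BA encodes the subunit of GPIb-IX that grips VWF (chr17:4835572-4838318, plus strand). It is a short gene in a dense block, and it had the most peaks of the 9 members in every list. There were 7 for AML1-ETO at 12 h and 12 at 48 h. ETO2-GLIS2 had 9 at 12 h and 9 at 48 h, 7 of them in 1 region at each time. Per 100 kb of window, GP1BA exceeded 88.2%, 90.7%, 99.4% and 97.9% of protein-coding genes. By the number of peaks alone it exceeded 71.8%, 75.5%, 96.0% and 93.4%. Its own start was marked only by AML1-ETO at 48 h, in a peak of 1397 bp with its summit 662 bp upstream, at rank 60723 (57.4%). The strongest peak inside the gene lay in exon 2, between 2.04 and 2.18 kb from the GP1BA start. Of 5 annotated transcripts of CHRNE, the gene of a muscle acetylcholine receptor subunit on the other strand, 1 starts in this exon. It is not the canonical one, which starts 31.3 kb away, so the peak was nearest to CHRNE by all transcript starts and to GP1BA by canonical starts. For AML1-ETO this peak ranked 1377 (1.94%) at 12 h and 1845 (1.74%) at 48 h, with folds of 33.4 and 38.1. For ETO2-GLIS2 it ranked 4508 (15.9%) at 12 h and 4573 (15.2%) at 48 h, with folds of 13.4 and 14.9. AML1-ETO thus ranked it higher in its own lists than ETO2-GLIS2 did, at widths of 1984 and 3166 bp against 959 and 780 bp.

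Around the exon 2 summits, the AML1-ETO windows at 12 h and 48 h each held 4 Runt matches. The ETO2-GLIS2 window at 48 h held 3, and that at 12 h, 140 bp from the AML1-ETO summit, held 0. Shown is part of the ETO2-GLIS2 window at 48 h, because no other region at the members held as many Runt matches in a window. It is the longest stretch, of 71 bases, that no transcript annotates as untranslated (chr17:4837566-4837636, plus strand). ACCACA in capitals is TGTGGT on the other strand.

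GP1BA exon 2 window: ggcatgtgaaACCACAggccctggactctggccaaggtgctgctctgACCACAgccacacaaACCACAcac

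Downstream of GP1BA the proteins covered the same ground in different shapes. AML1-ETO at 48 h had a single peak of 10814 bp (chr17:4843587-4854400) over the starts of RNF167, PFN1, the gene of the actin-binding protein profilin, and ENO3, a muscle enolase. It ranked 332 (0.314%) with a fold of 65.7, the best rank of any member peak in any list. At 12 h AML1-ETO covered 9599 bp of this region in 3 peaks, the widest of 7540 bp at rank 771 (1.09%). ETO2-GLIS2 covered 4972 bp in 7 peaks at 12 h and 5052 bp in 7 peaks at 48 h, with the best of them at rank 6338 (22.4%) and 6120 (20.3%). The window around the AML1-ETO summit at 48 h (chr17:4852946-4853145, plus strand), shown because it carries that best rank, held no Runt match.

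GP1BA downstream window: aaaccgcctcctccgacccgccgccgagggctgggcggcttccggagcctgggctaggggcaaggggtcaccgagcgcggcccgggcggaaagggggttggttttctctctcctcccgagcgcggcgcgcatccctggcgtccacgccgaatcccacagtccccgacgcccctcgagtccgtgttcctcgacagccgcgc

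Between CHRNE and this region, the start of SLC25A11, a mitochondrial carrier, had a peak in all 4 lists. Upstream of GP1BA, AML1-ETO had a peak 11.8 kb away at both times (rank 34326 at 12 h and 24043 at 48 h) with 1 Runt match in each window, and ETO2-GLIS2 had none upstream.

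GP9 encodes the small subunit without which GPIb-IX does not reach the surface (chr3:128779622-128781249, plus strand). It had peaks in the AML1-ETO list at 48 h only, at 9.32 and 6.99 kb upstream and at 8.76 and 10.8 kb downstream of the start. Their ranks were 103765, 83671, 58195 and 95212, all in the weaker 50% of the list, and folds lay between 2.51 and 3.51. Only the peak 6.99 kb upstream had GP9 as the nearest start of any transcript. Among starts of protein-coding genes, GP9 was the nearest for all of them. In the other lists the nearest summit outside the window was 44.1 kb away for AML1-ETO at 12 h, 54.8 kb for ETO2-GLIS2 at 12 h and 44.2 kb at 48 h. The subunits of the complex thus differed: GP1BA had strong peaks inside the gene and around it and GP9 by 4 weak ones at 48 h. Of the genes for the other subunits, GP1BB had 5 and 12 AML1-ETO peaks at 12 h and 48 h. It had 1 ETO2-GLIS2 peak at each time. In no list did a summit lie within 1 kb of the GP1BB start, and the nearest starts of these peaks are not given here. GP5 had 0 peaks in every list.

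GP6 encodes the collagen receptor glycoprotein VI (chr19:55525073-55549632, minus strand). Its main peak lay in intron 4, 11.1 kb inside the gene, about 0.5 kb from a start of the antisense RNA gene GP6-AS1. By canonical starts alone the nearest gene was GP6 itself. AML1-ETO ranked 3271 (4.62%) at 12 h, with 1824 bp and a fold of 21.9, and 1765 (1.67%) at 48 h, with 2383 bp and a fold of 38.9. ETO2-GLIS2 had no peak there at 12 h, and at 48 h 202 bp at rank 29748 (98.8%) with a fold of 2.86, close to the end of its list. AML1-ETO was thus strong at this site and ETO2-GLIS2 barely called. The sequence under the summits is a tandem repeat, shown from the AML1-ETO window at 48 h (chr19:55538406-55538605, plus strand).

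GP6 intron 4 window: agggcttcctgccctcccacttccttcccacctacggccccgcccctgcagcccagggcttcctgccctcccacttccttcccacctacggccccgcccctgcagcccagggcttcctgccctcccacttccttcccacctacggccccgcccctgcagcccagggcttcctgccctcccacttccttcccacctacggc

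A unit of 54 bp recurs here about 11.2 times over 604 bp (chr19:55538283-55538886), and the AML1-ETO windows matched themselves at 100% of bases one unit away. The ETO2-GLIS2 window at 48 h did so at 98.6%. The repeat supplied 12 GGAA matches to the AML1-ETO window at 48 h and 11 to that at 12 h, as TTCC on this strand, with no Runt match. Over all summits, 0.497% and 0.385% of AML1-ETO windows at 12 h and 48 h, and 0.357% and 0.292% of those of ETO2-GLIS2, were repeats by the same measure (at least 80% identity at a distance of 10 to 100 bp), and no other member window was. Reads from such units can be placed in several copies, and the part of that in the peak was not tested. Without the peaks in the repeat, GP6 kept weak AML1-ETO peaks, in exon 5 at 12 h (rank 63799) and in intron 5 (rank 60723) and at the RDH13 start (rank 71712) at 48 h, and had none of ETO2-GLIS2, which then had 4 of 9 genes at 48 h.

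PF4 and PPBP encode the main chemokines of the alpha granule and lie side by side (chr4:74846528-74847744 and chr4:74852156-74853907, both minus strand). Neither had a peak within 20 kb in any of the 4 lists. The closest summits were 116 kb from PF4 for AML1-ETO at 12 h, 97.5 kb at 48 h and 117 kb for ETO2-GLIS2 at both times. For PPBP they were 110 kb away for AML1-ETO at 12 h, 103 kb at 48 h and 111 kb for ETO2-GLIS2 at both times. These summits were nearest to the starts of CXCL2 and CXCL1, chemokine genes of myeloid cells, with ETO2-GLIS2 ranks of 5102 at 12 h and 3826 at 48 h and AML1-ETO ranks of 63799 and 71712. Since their windows overlap, PF4 and PPBP are not independent cases.

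VWF encodes the adhesive protein that links platelets to the vessel wall (chr12:6058043-6233936, minus strand). By the starts of all transcripts it was the only member with ETO2-GLIS2 peaks at both times whose nearest start was its own. By canonical starts only, this held for VWF and also for the exon 2 peak of GP1BA. The first region lay 16.4 kb upstream, at rank 3026 (10.7%) with a fold of 17.0 at 12 h and rank 5219 (17.3%) with a fold of 13.3 at 48 h. The summits were 13 bp apart, and neither AML1-ETO list had a peak there. The second region lay 14.3 kb upstream, at rank 6113 (21.6%) with a fold of 11.2 at 12 h and rank 8726 (29.0%) with a fold of 8.62 at 48 h, with summits 21 bp apart. AML1-ETO joined it at 48 h, at rank 18125 (17.1%) with a fold of 7.53 and a summit 116 bp from that of ETO2-GLIS2. At 12 h AML1-ETO had instead a 279 bp peak 15.3 kb upstream, between the regions of ETO2-GLIS2, at rank 34326 (48.5%). Both windows are shown, since no other region of ETO2-GLIS2 at both times was nearest to its member under both of these settings. The first is chr12:6250210-6250409 around the summit at 12 h, with a C/EBP match in capitals (TTGCNNAA, here on the other strand), and the second is chr12:6248131-6248330 around the summit at 48 h, with Runt matches in capitals (both plus strand).

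VWF 16.4 kb upstream: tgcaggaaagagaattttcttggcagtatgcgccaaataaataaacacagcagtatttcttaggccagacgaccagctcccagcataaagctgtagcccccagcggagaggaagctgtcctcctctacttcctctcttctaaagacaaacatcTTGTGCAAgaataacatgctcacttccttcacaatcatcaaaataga

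VWF 14.3 kb upstream: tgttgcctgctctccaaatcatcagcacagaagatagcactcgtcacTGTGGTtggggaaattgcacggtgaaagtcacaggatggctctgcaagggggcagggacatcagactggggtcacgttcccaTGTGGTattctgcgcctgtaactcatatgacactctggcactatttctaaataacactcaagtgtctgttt

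The region that ETO2-GLIS2 held alone thus had no Runt match at either time, and the region it shared with AML1-ETO had 2 in each ETO2-GLIS2 window and 1 in the AML1-ETO window. Neither held the GLIS pattern TGGGGGG. Farther into the gene, ETO2-GLIS2 at 48 h had a peak in intron 12 (rank 11154, 37.1%), nearest to the start of the RNA gene RN7SL69P. AML1-ETO at 12 h had a peak in intron 47 (rank 63799, 90.1%). AML1-ETO at 48 h had weak peaks 9.53 and 12.5 kb upstream (rank 69004 and 95212).

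SELP encodes P-selectin, which binds leukocytes to activated platelets and endothelium (chr1:169558087-169599431, minus strand). Its only region lay in intron 9, about 25 kb inside the gene, and was seen at 12 h with both proteins and at 48 h with neither. Its nearest start was that of a SELP transcript, or of F5, the neighbouring gene of coagulation factor V, by canonical starts alone. AML1-ETO ranked 17040 (24.1%) there with a fold of 6.73, and ETO2-GLIS2 ranked 9410 (33.2%) with a fold of 6.43. Their summits were 296 bp apart. At 48 h the nearest summit was 59.7 kb from the gene for AML1-ETO and 75.8 kb for ETO2-GLIS2. The ETO2-GLIS2 window (chr1:169574226-169574425, plus strand), shown as the site that only the lists at 12 h hold, had 3 GGAA and none of the other patterns. The AML1-ETO window, centred 296 bp away, held 3 GGAA, 1 Runt match and 1 GATA match.

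SELP intron 9 window: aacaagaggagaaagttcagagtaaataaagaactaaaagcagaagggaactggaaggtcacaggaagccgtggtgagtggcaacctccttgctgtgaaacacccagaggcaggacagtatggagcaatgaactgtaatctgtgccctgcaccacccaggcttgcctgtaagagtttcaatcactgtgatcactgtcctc

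**Figure D3:**
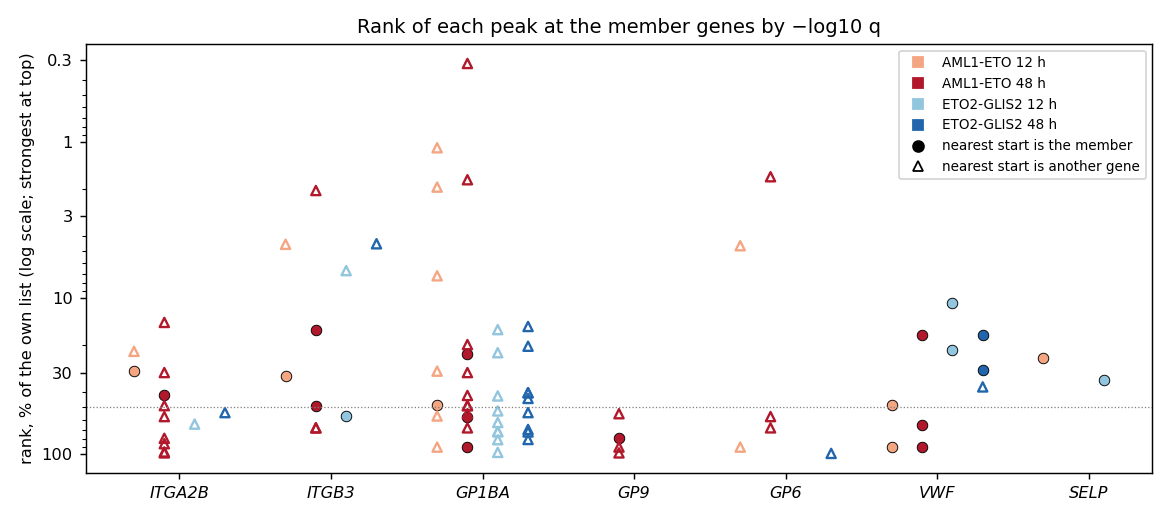
Rank of every peak at the 7 genes with peaks as a percentage of its own list (vertical axis, log scale, strongest at the top), with circles where the nearest start is the member's and open triangles where it is another gene's, and a dotted line at 50%. All points stronger than 10% are triangles, at GP1BA, ITGB3 and GP6, and the best circle is the ETO2-GLIS2 peak of VWF at 12 h, at 10.7%, with starts of all annotated transcripts. By canonical starts the triangles of GP1BA exon 2 and of GP6 intron 4 would be circles.

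Across all members, the median rank was 29.4% of the list for AML1-ETO at 12 h, 55.0% at 48 h, 52.8% for ETO2-GLIS2 at 12 h and 40.4% at 48 h. The strongest 10% of each list supplied 5, 4, 1 and 1 member peaks. Median widths were 505 bp (AML1-ETO 12 h), 481 bp (48 h), 422 bp (ETO2-GLIS2 12 h) and 422 bp (48 h), against 360, 415, 382 and 399 bp over all peaks. An AML1-ETO peak at a member overlapped an ETO2-GLIS2 peak of the same time in 9 of 16 cases at 12 h (56.3%, exact 95% Clopper-Pearson interval 29.9 to 80.3) and in 7 of 36 at 48 h (19.4%, 8.19 to 36.0). Over all peaks these shares were 26.2% and 17.8%. An ETO2-GLIS2 peak at a member overlapped an AML1-ETO peak in 13 of 15 cases at each time (86.7%, 59.5 to 98.3), against 74.5% and 83.4% over all peaks. At each time 9 of these 13 peaks lay at GP1BA, 7 of them in 1 region, so that they are not independent sites, and with summits to lie within 200 bp the share was 40.0% at both times. Of the 9 overlapping AML1-ETO peaks at 12 h, 5 lay at GP1BA and are not independent sites, and with at least 50% of a peak to be covered the share was 18.8%. The same protein had an overlapping peak at the other time for 12 of 16 and 9 of 36 AML1-ETO peaks (75.0% and 25.0%, against 73.9% and 36.8% over all peaks) and for 11 of 15 ETO2-GLIS2 peaks at each time (73.3%, against 60.6% and 54.6%). Most of these 11 peaks at each time lay at GP1BA, as did most of the 12 AML1-ETO peaks at 12 h, so they are not independent sites either. The Clopper-Pearson intervals take each peak as an independent draw, which those at GP1BA are not. They therefore do not measure the spread between sites or between libraries. Under the stricter overlap rules the shares over all peaks are not given.

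Runt matches lay in 7 of 16 and 8 of 36 AML1-ETO windows at members (12 h and 48 h), where 26.7% and 24.9% of all summits of these lists held one. In windows of 100 bp they lay in 3 of 16 at 12 h, against 15.9% of all summits. For ETO2-GLIS2 they lay in 3 and 4 of 15 windows, against 23.2% and 21.9%. The GLIS pattern was in 0 of 15 windows of either ETO2-GLIS2 list at members, against 7.72% and 7.89% of all summits, and in 0 of 16 and 2 of 36 AML1-ETO windows (4.23% and 3.83%). GATA matches, the letters that GATA1 reads, were in 2, 5, 2 and 0 windows in the order of the lists, against 11.7%, 12.3%, 9.10% and 7.90% of all summits. GGAA was in 14, 29, 14 and 14 windows, against 83.5%, 82.9%, 87.0% and 85.7%. Several windows overlap one another, GP1BA supplied 3 of the 7 and 3 of the 8 AML1-ETO windows with a Runt match, and these counts were not tested. The member windows had mean GC contents of 62.0%, 54.2%, 56.7% and 62.6%, against 53.1%, 52.0%, 57.5% and 58.7% over all summits.

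The same was asked of 38 other platelet genes. A peak within 20 kb was found for 29, 32, 25 and 27 of them in the order of the lists (76.3%, 84.2%, 65.8% and 71.1%), close to the shares over all genes, and a start peak for 14, 16, 11 and 11 (36.8%, 42.1%, 28.9% and 28.9%), below the shares over all genes in every list. Of the 38, 9 had a start peak in all 4 lists (23.7%, against 27.0% of all protein-coding genes) and 22 in none (57.9%, against 44.4%). The 9 were the purinergic channel P2RX1, the thrombin receptor F2RL3, the signalling chain FCER1G, the integrin activator FERMT3, the protein kinase C substrate PLEK, the myosin MYH9, the granule genes NBEAL2 and VPS33B, and PTGS1, the cyclooxygenase that aspirin blocks. Genes of the cytoskeleton, granule formation or signalling accounted for 5 of 10, receptors for 3 of 18, enzymes for 1 of 3 and granule cargo for 0 of 7, counts too small to be set against that background. Many of the 9 serve leukocytes too. P2RX1 and F2RL3 were among the strongest ETO2-GLIS2 sites of all, at rank 67 and 44 at 12 h and 94 and 62 at 48 h. For AML1-ETO, P2RX1 ranked 1573 at 12 h and 1172 at 48 h, and F2RL3 1294 and 2841. GP5, P2RY1, MMRN1 and F13A1 had no peak in any list.

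The members had the lowest median peak density of the 5 gene sets compared, in every list. Their median was 1.23 peaks per 100 kb for AML1-ETO at 12 h, 4.65 at 48 h, 0.926 for ETO2-GLIS2 at 12 h and 1.00 at 48 h. Over all protein-coding genes it was 3.76, 5.75, 1.60 and 1.59, and for the 38 other platelet genes 7.06, 10.3, 1.96 and 2.49. For 20 surface genes of monocytes, the lineage of U937, it was 12.3, 17.0, 3.65 and 4.51, and for 12 erythroid genes 3.59, 5.61, 1.31 and 2.09. Summits within 1 kb of the start were found for 12, 12, 7 and 8 of the 20 monocyte genes. For the 12 erythroid genes the counts were 2, 2, 3 and 4. Over all protein-coding genes the shares were 45.1%, 49.9%, 35.3% and 38.2%. The monocyte genes lay above these with AML1-ETO, at 60.0% at both times, and close to them with ETO2-GLIS2. The erythroid genes lay below them in every list. With 9 members and 1 library per condition, these medians and shares describe the lists and were not tested.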

How the data were processed

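Peak lists of 4 anti-HA ChIP libraries were analysed; the 4 inputs entered only through the authors' peak calling. Groups came from the sample titles and characteristics, and for the samples at 12 h another label names 48 h. Per the labels, the authors mapped their reads on hg19 (Bowtie2 2.2.9) and called peaks with MACS2 2.1.1.20160309 against input, and MACS2 settings, duplicate removal and artefact filters are not given in the sources used here. The deposited fold enrichment is a linear ratio over local background, and MACS2 also gave the deposited −log10 p and −log10 q values. The deposited score is 10 times the −log10 q, and the deposited summit column gives a distance from the peak start. These values depend on sequencing depth, which the lists do not give, and were ranked only within a list, with tied peaks sharing the best rank.

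Genes, exons of canonical transcripts and starts of all transcripts came from GENCODE release 44 on GRCh37, as did the sequence, and 0 of 235023 peaks ended beyond a GRCh37 chromosome. Peaks overlapped if they shared 1 bp. Each summit's pattern matches were counted in a window of 200 bp, and motif, repeat and overlap routines were tested on simulated data. Python 3.11.15, pandas 2.3.3, numpy 2.4.6 and scipy 1.17.1 were used. No p-value was computed, since every condition has 1 library. The 9 members, the lists of 38, 20 and 12 comparison genes and the patterns were chosen with earlier results of these data known. All members were named, with every protein-coding gene whose start, over all transcripts, was nearest to a member peak. Non-coding RNA genes and pseudogenes nearest to a peak were not all named. Of the other platelet genes, those with a start peak in all 4 lists and those with no peak were named. The windows at the ITGA2B start, upstream of ITGB3, 14.3 kb upstream of VWF and the AML1-ETO window in GP6, the test for tandem repeats and the starts of canonical transcripts were chosen after the values were seen. Alternatives were windows of 5 and 50 kb, thresholds on −log10 q of 5 and 10, lists of equal length, other overlap rules and a 100 bp motif window.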

Additional observations from a re-analysis of the deposited data

How the results depend on the processing

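Counts of peaks at the members, in the order AML1-ETO 12 h and 48 h and ETO2-GLIS2 12 h and 48 h, were 8, 10, 3 and 4 within 5 kb and 35, 72, 28 and 28 within 50 kb of the gene, in place of 16, 36, 15 and 15. They were 10, 11, 9 and 11 at a −log10 q of at least 5, and 7, 9, 6 and 5 at a −log10 q of at least 10. With lists of equal length AML1-ETO had 10 and 9 peaks, and within 20 kb of the start AML1-ETO at 48 h had 23. Members with a peak stayed within 1.5 times the main count for AML1-ETO under every setting. For ETO2-GLIS2 at 12 h and 48 h, 2 and 3 members had a peak within 5 kb, against 57.1% and 57.9% of all protein-coding genes. Within 20 kb of the start it was 3 and 3 members, against 57.0% and 57.8%. At a −log10 q of at least 10 it was 3 members at 48 h, against 47.8%. Overlap with the other protein was 18.8% and 5.56% for AML1-ETO at 12 h and 48 h when 50% of a peak had to be covered, and 40.0% for ETO2-GLIS2 at both times when summits had to lie within 200 bp. For AML1-ETO at 48 h it was 54.5% (6 of 11 peaks) at a −log10 q of at least 5 and 66.7% (6 of 9) with lists of equal length. Overlap of AML1-ETO with itself at the other time was 43.8% (7 of 16) at 12 h with summits within 200 bp. At 48 h it was 63.6% (7 of 11) at a −log10 q of at least 5 and 77.8% (7 of 9) with lists of equal length. Overlap shares over all peaks under these changed rules are not given here. Members and whole lists therefore cannot be compared under them. Fewer peaks or a stricter rule enter by construction, and other causes were not tested. Placing peaks by any base in place of the summit changed no count, and leaving out the tandem repeat at GP6, an alternative chosen after seeing the data, moved none by 1.5 times. With canonical starts only, also chosen after seeing the data, peaks nearest to a member were 8, 14, 4 and 5, in place of 6, 10, 4 and 2. A 100 bp window moved 11 of the motif counts and left 21 within the same bounds. No paired analysis was possible because each condition has 1 library and nothing was tested.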
